A study of Mus musculus with 6 samples.

Results

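The immunoglobulin constant genes and the gene of the joining chain were followed in RNA from sorted mouse spermatogonia, which do not make antibodies. They comprised 9 of the 53657 gene names in the count files. Ighm, Ighd, Ighg1, Ighg2b, Ighg2c, Ighg3 and Igha encode the constant regions of the heavy chains of IgM, IgD, IgG1, IgG2b, IgG2c, IgG3 and IgA. Igkc encodes the constant region of the kappa light chain, and Jchain the joining chain that links IgA and IgM into larger units. The genes were chosen by name, but with the measured counts of the same comparison already known, in which immunoglobulin variable genes were lower in the mutant samples. Their differences between the genotypes are therefore given as a description. The fit across all genes is quoted for their fold changes and for how many of them were called, and nothing is read from those calls.

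The study asked how hyperactive Hras acts on spermatogonial stem cells. All 6 samples, 3 WT and 3 MUT, came from adult mice carrying the Gfra1-creERT2 driver, which is active in undifferentiated type A spermatogonia (Aundiff), and a Cre-dependent tdTomato reporter, on a mixed strain background. All received a pair of courses of tamoxifen, and their cells were isolated 3 months later. MUT mice were heterozygous for a flox-and-replace allele (FR-Hras), which WT littermates lacked. From it Cre switched on the Hras G12V mutation in spermatogonia that express the driver. The paper states that this driver is not active in somatic cells of the testis. The genotype of the cells that made the immunoglobulin RNA was not measured. Each sample held the tdTomato+ MCAM-bright cells sorted from the testes of 1 mouse, and its polyA RNA was sequenced. MCAM is a surface protein that is high on Aundiff. The paper states that somatic cells express it too, and that the tdTomato label served to keep them out of the sort.

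Antibodies are made by B cells and, in far larger amounts, by the plasma cells into which they mature. A heavy chain gene is assembled from variable, diversity and joining segments and is first read together with Ighm and Ighd. Class switching later replaces Ighm by a gene of the Ighg, Ighe or Igha type farther along the chromosome. IgA is the main antibody of mucosal surfaces, where it is secreted joined by the J chain. Each B cell clone uses its own combination of variable genes, so the variable genes in a sample bear on how many clones its RNA came from.

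The 7 heavy chain genes lie on the minus strand of chromosome 12 in GRCm38, between 113254830, the end of Igha, and 113422730, the start of Ighm. Igkc lies on the plus strand of chromosome 6, spanning 70726435 to 70726966, and Jchain on chromosome 5 (minus strand, 88519809 to 88527891). The first 90 bases of the constant region are shown for the genes that decided the isotype make-up and for the pair of IgG genes that resemble each other most in sequence. They come from the GENCODE vM21 transcripts of the same build and are exonic. Capitals mark the 7 positions at which Ighg2b and Ighg2c differ within this stretch (92.2% identity).
Igha, chr12:113260147-113260236, minus strand: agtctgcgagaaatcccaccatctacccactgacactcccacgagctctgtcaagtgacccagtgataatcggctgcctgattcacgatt
Ighm, chr12:113422641-113422730, minus strand: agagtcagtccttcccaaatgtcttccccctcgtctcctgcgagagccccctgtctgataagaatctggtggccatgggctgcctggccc
Igkc, chr6:70726435-70726524, plus strand: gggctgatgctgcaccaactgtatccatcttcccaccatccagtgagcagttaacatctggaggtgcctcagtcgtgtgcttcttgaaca
Ighg2b, chr12:113307844-113307933, minus strand: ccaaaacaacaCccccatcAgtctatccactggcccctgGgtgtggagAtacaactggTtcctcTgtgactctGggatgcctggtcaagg
Ighg2c, chr12:113288843-113288932, minus strand: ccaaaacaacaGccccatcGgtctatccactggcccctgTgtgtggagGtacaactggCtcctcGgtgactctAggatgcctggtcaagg
Of all stretches of 50 bases in the transcripts of Igha, Ighm, Ighd and Igkc, 100% occurred in no transcript of another gene. For Ighg2c the share was 94.5% and for Ighg2b 95.9%, and each shared 70 stretches with the other. Fragments that aligned to several places were left out of the counts, so the lowest IgG counts are the least certain. Ighg2a, the allele that takes the place of Ighg2c in some strains, was not among the gene names of the files.

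Each sample held between 22729292 and 23550433 counts on genes, so depth was close to equal. Where values are listed by group, they follow the order of replicates 1, 2 and 3. At that depth 3 counts, taken as the floor for detection, corresponded to between 0.127 and 0.131 CPM (counts scaled to library size by the TMM method). The 11 markers of undifferentiated spermatogonia and germ cells, among them Gfra1, Zbtb16 and Dazl, summed to between 3141 and 3713 CPM in every sample. Markers of the labelled cell type were thus high in both groups.

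The summed level of the 9 genes was lower in MUT than in WT, but it varied by more than an order of magnitude between mice. It was 129.9, 441.6 and 672 CPM in the WT mice, against 42.0, 23.4 and 158.3 CPM in the MUT mice. WT replicate 1 lay below MUT replicate 3, so the groups overlapped. The means were 414.5 ± 272.1 CPM in WT and 74.6 ± 73.1 CPM in MUT (SD, n = 3 each), a 5.56-fold ratio, while the highest and lowest samples stood 28.8-fold apart. The log2 ratio of MUT to WT means was -2.48 with all samples, -3.66 without MUT replicate 3, -2.90 without WT replicate 1, -2.05 without MUT replicate 2 and -1.94 without WT replicate 3. In each sample the 9 genes took between 0.00231% and 0.0700% of all counts. Fewer antibody-producing cells in a sorted sample and less immunoglobulin RNA per cell cannot be told apart in these bulk libraries.

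**Figure D1:**
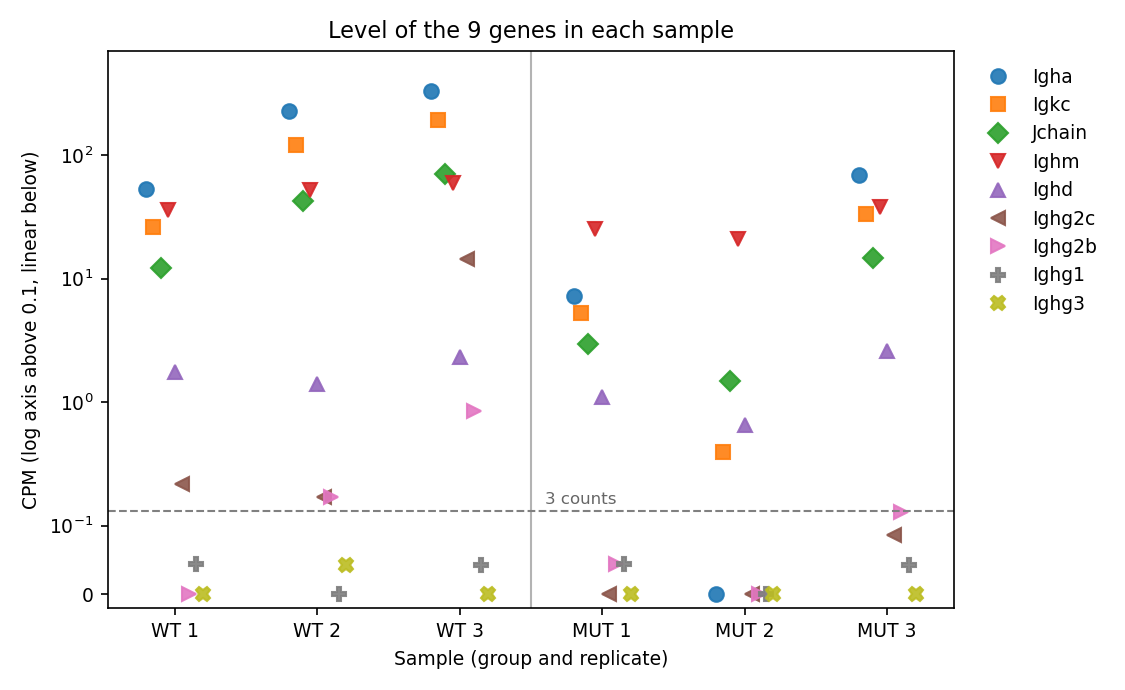
TMM-normalized CPM of each of the 9 genes (vertical axis, logarithmic above 0.1 and linear below) in the 3 WT and 3 MUT samples. Each marker is 1 gene in 1 sample and the dashed line is the level of 3 counts. Igha stands highest in 4 samples and Ighm in MUT replicates 1 and 2, where Igha is at 165 and 0 counts.

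Ighm, the heavy chain of naive B cells and of IgM plasma cells, was detected in all samples and varied least among the abundant members. The WT mice had 826, 1210 and 1396 counts, against 580, 481 and 882 in the MUT mice. MUT replicate 3 stood above WT replicate 1, and all other MUT samples stood below all WT samples. The mean was 48.9 ± 11.7 CPM in WT and 28.0 ± 8.72 CPM in MUT (SD, n = 3 each), with a log2 fold change of -0.81 (standard error 0.236, edgeR).

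Ighd, which is co-expressed with Ighm in naive B cells, was low. It had 40, 33 and 55 counts in WT and 25, 15 and 61 counts in MUT. The highest value belonged to MUT replicate 3 and the groups overlapped. The mean was 1.83 ± 0.462 CPM in WT and 1.45 ± 1.03 CPM in MUT (SD, n = 3 each), with a log2 fold change of -0.33 (standard error 0.458). Ighd stood at between 0.0271 and 0.0687 of the level of Ighm per kilobase of exon in all 6 samples.

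Igha, the heavy chain of IgA, had the most counts of the 9 genes in 4 of the 6 samples. The WT mice had 1225, 5285 and 7857 counts, against 165, 0 and 1622 in the MUT mice. WT replicates 2 and 3 stood above all MUT samples, WT replicate 1 stood below MUT replicate 3, and no fragment was counted in MUT replicate 2. The means were 203.8 ± 140.6 CPM in WT and 25.5 ± 38.1 CPM in MUT (SD, n = 3 each). The log2 fold change was -3.00 (standard error 1.20), and it lay between -5.82 (without MUT replicate 3) and -2.42 (without MUT replicate 2) when samples were left out in turn.

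The 4 IgG genes were close to absent except in 1 animal. Ighg2c had 5, 4 and 339 counts in WT and 0, 0 and 2 counts in MUT, so that WT replicate 3 held nearly all of its counts. It was the only member whose WT samples all stood above all MUT samples, which without WT replicate 3 rests on 5 and 4 counts against 0, 0 and 2. Every WT sample lay above every MUT sample for 3.00% of the 19656 genes tested, and Ighg2c itself did not pass the filter on low counts. Ighg2b had 0, 4 and 20 counts in WT and 1, 0 and 3 in MUT, again with its highest value in WT replicate 3. Ighg1 had at most 1 count in any sample, and Ighg3 had 1 count in WT replicate 2 and 0 elsewhere. Both are below the floor of 3 counts in all samples.

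Igkc, the constant region shared by all kappa light chains, followed the order of Igha across samples. The WT mice had 595, 2801 and 4580 counts, against 121, 9 and 787 in the MUT mice. The highest and lowest samples stood 508.9-fold apart in counts, and WT replicate 1 lay below MUT replicate 3. The mean was 113.1 ± 84.0 CPM in WT and 13.1 ± 18.0 CPM in MUT (SD, n = 3 each), with a log2 fold change of -3.11 (standard error 1.06). Left out in turn, samples moved it to between -5.31 (without MUT replicate 3) and -2.47 (without WT replicate 3). Per kilobase of exon Igkc had the highest mean level of the 9 genes, at 118.6 CPM per kilobase, ahead of Igha at 43.0, Ighm at 20.4 and Jchain at 9.52. Ighg2c followed at 1.86, carried by WT replicate 3, and Ighd at 0.863. Among the 4 highest, the ranges of neighbours in that order overlapped between samples.

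The lambda light chains, which are the minor type in mice, were scarce beside kappa. Iglc1 had 1, 92 and 68 counts in WT and 0, 0 and 3 in MUT. Iglc2 had 2, 7 and 15 counts in WT and 1, 0 and 4 in MUT, and Iglc3 had 2, 3 and 9 counts in WT and 0 in all MUT samples. Lambda took 0.833%, 3.51% and 1.97% of light chain constant counts in the WT mice, against 0.820%, 0% and 0.882% in the MUT mice. The values of the MUT samples rest on 1, 0 and 7 lambda counts. Of the remaining constant genes, Ighe (IgE) had 2 counts in MUT replicate 2 and none elsewhere, and Iglc4 had none.

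Jchain, which plasma cells express together with IgA or IgM, gave 280, 996 and 1651 counts in the WT mice, against 68, 34 and 345 in the MUT mice. WT replicate 1 was again below MUT replicate 3, and no other WT sample lay below a MUT sample. The mean was 41.5 ± 28.8 CPM in WT and 6.40 ± 7.27 CPM in MUT (SD, n = 3 each). The log2 fold change was -2.70 (standard error 0.820), and it lay between -4.22 (without MUT replicate 3) and -2.10 (without WT replicate 3) when samples were left out in turn. In the fit with the replicate number as a block it was -2.86 and Jchain was called at an FDR of 0.1, a call of a gene chosen with this comparison known.

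Across the samples Igha, Igkc, Jchain and Ighm ranked identically by counts, from WT replicate 3 through WT replicate 2, MUT replicate 3, WT replicate 1 and MUT replicate 1 to MUT replicate 2. Within each pair of the same number, Igha, Igkc, Jchain, Ighm and Ighg2c were lower in MUT in 3 of 3 pairs and Ighd in 2 of 3. Of the 9 genes 5 passed the filter on low counts and entered the fit across all genes. edgeR's quasi-likelihood test called 0 of them at an FDR of 0.1, where 0.0102% of all tested genes (2 of 19656) were called. With the replicate block it called 1 of the 5, where 0.0661% of all genes (13) were called, and DESeq2 called 0 of the 5 and 9 genes in all. At an unadjusted p under 0.05 stood 4 of the 5 and 547 genes in all. The median log2 fold change of the 5 genes was -2.70 and that of all tested genes 0.0066. Since the genes were chosen with this comparison known, nothing is read from these counts.

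The isotype make-up followed from these values. Igha took 58.4% of heavy chain constant counts in WT replicate 1 (exact Clopper-Pearson 95% interval 56.3 to 60.5), 80.9% in WT replicate 2 (79.9 to 81.8) and 81.3% in WT replicate 3 (80.5 to 82.0). In MUT replicate 1 it took 21.4% (18.5 to 24.4) and in MUT replicate 3 it took 63.1% (61.2 to 65.0). MUT replicate 2 had 0 Igha counts of 496 (0 to 0.741), where the floor of 3 counts corresponds to 0.605%. By counts, Igha was thus the main heavy chain gene in all 3 WT samples and in MUT replicate 3, and Ighm in MUT replicates 1 and 2. Whether the Ighm counts came from assembled IgM genes was not tested, and strand was not used. In MUT replicate 2 they stood beside 9 Igkc and 19 Ighv counts. The intervals cover counting error only, since fragments copied by PCR were not separable.

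Ighm took 39.4%, 18.5% and 14.4% of heavy chain counts in the WT mice, against 75.1%, 97.0% and 34.3% in the MUT mice. The share of Ighd was 1.91%, 0.505% and 0.569% in WT and 3.24%, 3.02% and 2.37% in MUT. Every MUT share lay above every WT share. The interval of WT replicate 1 (1.37 to 2.59) overlapped those of MUT replicates 1 (2.11 to 4.74), 2 (1.70 to 4.94) and 3 (1.82 to 3.04). Igha is part of the sum behind these shares. The level of Ighd itself and its ratio to Ighm overlapped between the groups. The Ighg genes together were visible in WT replicate 3, where Ighg2c alone took 3.51% (3.15 to 3.89). Among class-switched counts, which are those of Igha and the Ighg genes, Igha made up 99.5%, 99.8% and 95.6% in WT replicates 1 to 3. In MUT replicates 1 and 3 it made up 98.8% and 99.6%, and MUT replicate 2 had no switched count.

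Correcting for exon length lowered the share of Igha, whose exons are longer than those of Ighm. Per kilobase of exon Igha took 49.8%, 74.9% and 74.0% in WT and 16.1%, 0% and 54.7% in MUT. Igha still exceeded Ighm in the same 4 samples as by counts, narrowly in WT replicate 1, where Ighm took 47.5%.

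**Figure D2:**
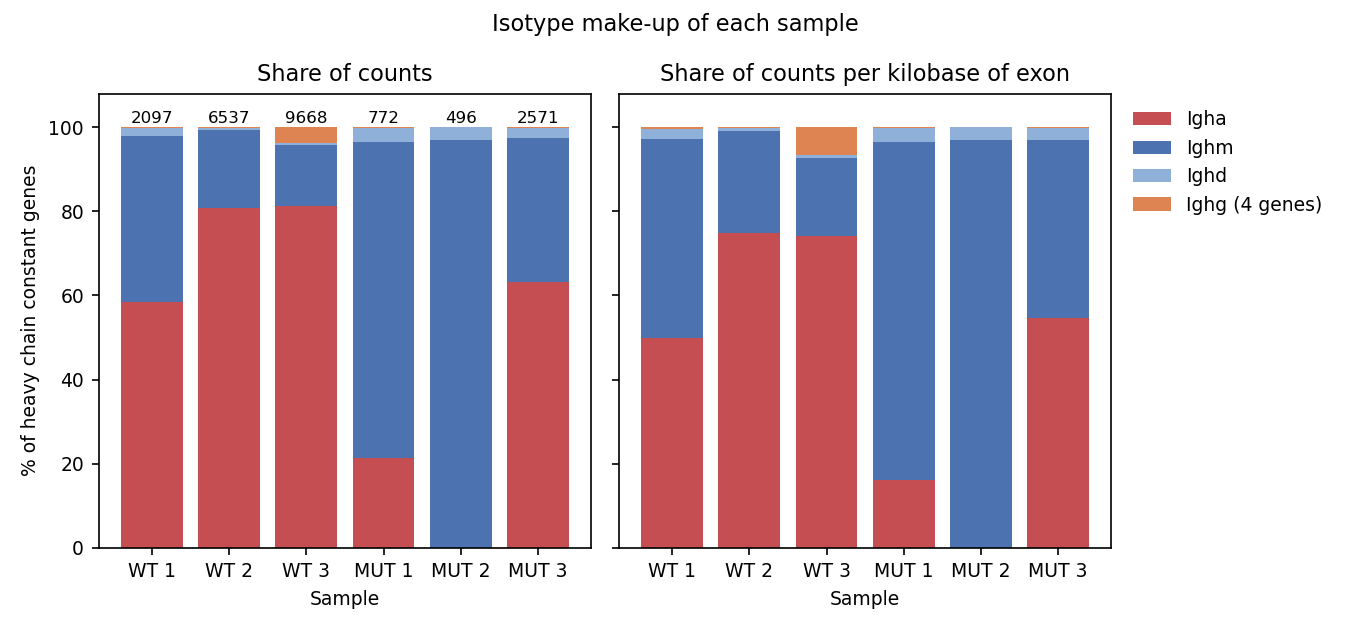
Share of Igha, Ighm, Ighd and the summed Ighg genes in the heavy chain constant counts of each sample (vertical axis, percent), from counts on the left and from counts per kilobase of exon on the right. Numbers above the bars are the heavy chain counts of the sample, from 496 to 9668. By counts Igha holds 81.3% in WT replicate 3, 63.1% in MUT replicate 3 and 0% in MUT replicate 2.

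Light chain and J chain stayed in a narrower ratio to IgA than IgM did. The level of Igkc per kilobase was 2.44, 2.66 and 2.92 times that of Igha in WT replicates 1 to 3, and 3.68 and 2.43 times in MUT replicates 1 and 3. Jchain per kilobase was 0.242, 0.200 and 0.223 of Igha in WT, and 0.437 and 0.226 in MUT replicates 1 and 3. MUT replicate 1, with 165 Igha counts, gave the highest of both ratios, and MUT replicate 2 has none because Igha was at 0. Ighm per kilobase ranged from 0.251 of Igha in WT replicate 3 to 4.97 times Igha in MUT replicate 1. In MUT replicate 2 Igkc per kilobase was 0.0663 of Ighm, against between 0.740 and 11.6 in the other samples. Ighm was thus counted there with almost no kappa RNA.

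The variable genes were not members, but their lower counts in MUT were known when the members were chosen, so their sums are a description of the same libraries and no separate evidence. The 183 Ighv genes summed to 331, 1226 and 1553 counts in the WT mice, against 48, 19 and 347 in the MUT mice. The 162 Igkv genes summed to 413, 1494 and 2179 counts in WT and to 69, 10 and 415 counts in MUT. Both families ranked the samples by counts as Igha did, although 413 and 415 Igkv counts in WT replicate 1 and MUT replicate 3 do not differ beyond counting error. For each 100 heavy chain constant counts there were 15.8, 18.8 and 16.1 Ighv counts in WT replicates 1 to 3 and 13.5 in MUT replicate 3. In MUT replicates 1 and 2, where Ighm prevailed, there were 6.22 and 3.83. For each 100 Igkc counts there were between 47.6 and 69.4 Igkv counts in 5 samples, and in MUT replicate 2 there were 10 Igkv against 9 Igkc counts.

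The number of variable genes in use differed as widely as the level. Among Ighv and Igkv genes 19, 50 and 54 had at least 3 counts in the WT mice, against 3, 3 and 19 in the MUT mice. A sample with fewer counts has fewer genes above the floor, so that the number and the level are not independent. WT replicates 2 and 3 had 22 genes in common, 44.0% and 40.7% of their lists. WT replicate 3, with the longest list, held 15 of the 19 genes of WT replicate 1 (78.9%; 27.8% of its own list) and 12 of the 19 genes of MUT replicate 3 (63.2%; 22.2% of its own list). WT replicate 1 and MUT replicate 3, which had 19 genes each, had 7 in common (36.8% of either list). Near-identical variable genes lost fragments that aligned to several of them, so these numbers are undercounts.

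The leading gene differed between mice, except that Igkv5-43 led the kappa genes in both WT replicate 1 and MUT replicate 3. WT replicate 1 was led by Ighv1-26 (84 of 331 Ighv counts, 25.4%) and Igkv5-43 (101 of 413 Igkv counts, 24.5%). WT replicate 2 was led by Ighv14-4 (89 counts, 7.26%) and Igkv12-44 (195 counts, 13.1%), and WT replicate 3 by Ighv1-69 (201 counts, 12.9%) and Igkv1-110 (564 counts, 25.9%). MUT replicate 3 was led by Ighv1-76 (112 counts, 32.3%) and Igkv5-43 (122 counts, 29.4%). Ighv1-69, Ighv1-76 and Igkv12-44 had 0 counts in the other 5 samples. The others were shared. Ighv1-26 had 84, 87 and 107 counts in WT and 1, 0 and 36 counts in MUT. Igkv5-43 had 101, 0 and 88 counts in WT beside its 122 in MUT replicate 3. Ighv14-4 had 89 and 44 counts, and Igkv1-110 had 113 and 564 counts, in WT replicates 2 and 3, and both had 0 in the other samples.

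MUT replicate 1 stood out by a single pair of variable genes. Ighv2-3 held 35 of its 48 Ighv counts (72.9%, exact 95% interval 58.2 to 84.7) and Igkv6-23 held 61 of its 69 Igkv counts (88.4%, 78.4 to 94.9). Both had 0 counts in the other 5 samples. In MUT replicate 2 no gene led, since Ighv1-84 and Ighv6-4 had 4 counts each and Igkv3-4 and Igkv6-14 at most 2. The last 90 bases of the annotated gene are shown in lower case for the pair that led in MUT replicate 1, from the GENCODE vM21 transcripts on GRCm38. They end at the side that is joined to the diversity or joining segment.
Ighv2-3, chr12:113611187-113611276, minus strand: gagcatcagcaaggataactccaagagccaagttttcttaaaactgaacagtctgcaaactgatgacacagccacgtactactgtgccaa
Igkv6-23, chr6:70260409-70260498, minus strand: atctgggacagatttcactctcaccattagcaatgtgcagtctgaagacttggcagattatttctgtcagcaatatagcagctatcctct
Of all stretches of 50 bases, 82.2% of those in Ighv2-3 and 64.4% of those in Igkv6-23 occurred in no transcript of another gene. Across all 9 leading genes that share was between 48.8% and 82.2%.

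**Figure D3:**
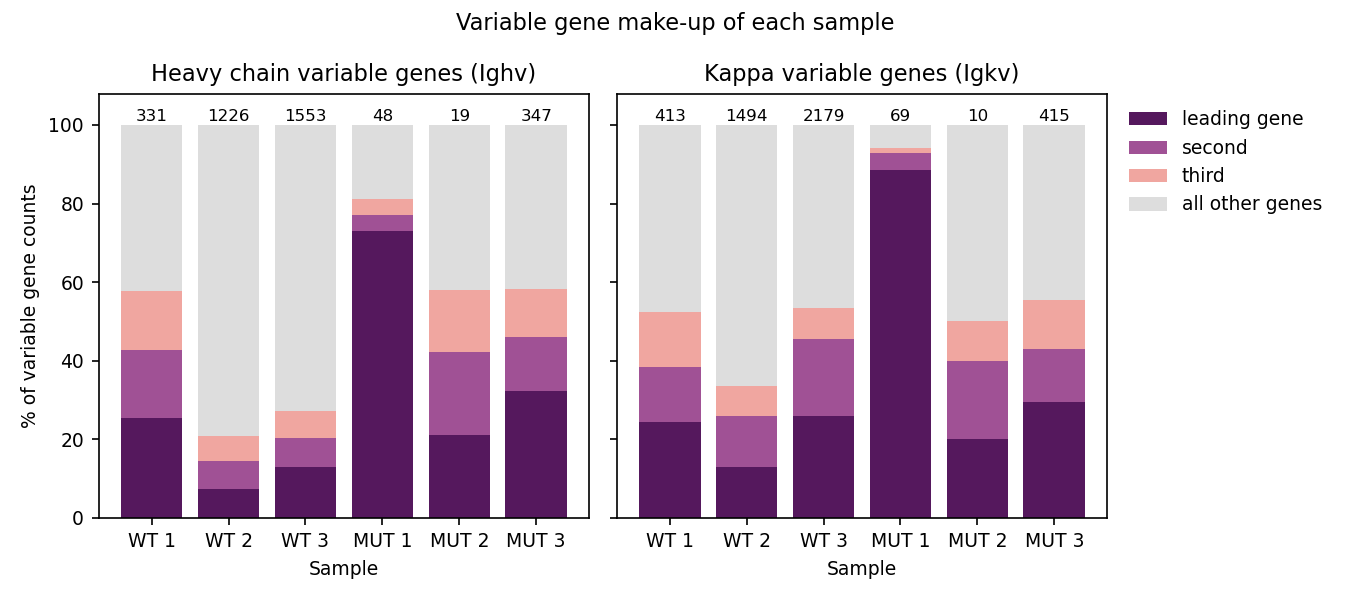
Share of the leading, the second and the third gene and of all other genes in the Ighv counts (left) and Igkv counts (right) of each sample, in percent. Numbers above the bars are the counts of the family, from 19 to 1553 for Ighv and from 10 to 2179 for Igkv. In MUT replicate 1 a single gene holds 72.9% and 88.4% of the counts, while in WT replicate 2 the leading genes hold 7.26% and 13.1%.

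The summed level of the plasma cell list varied far less than that of the 9 genes, and its low genes did not rank the samples alike. The 13 genes of the plasma cell list summed to 162.4, 175.9 and 167.6 CPM in WT and to 175.4, 177.8 and 162.9 CPM in MUT, a range of 1.10-fold over the samples. Sdc1 (the surface proteoglycan CD138) and Xbp1 (a transcription factor of the secretory programme) made up most of that sum. In MUT replicate 2, where Igha had no count, they had 1618 and 1392 counts. Whether the spermatogonia themselves expressed them cannot be told from bulk RNA, so the sum is no measure of plasma cell number. Sdc1 was at 58.2 ± 5.76 CPM in WT and 65.1 ± 7.43 CPM in MUT, and Xbp1 at 59.9 ± 1.99 CPM in WT and 58.8 ± 2.42 CPM in MUT (SD, n = 3 each). The next were Derl3, a factor that clears misfolded secretory proteins (log2 fold change 0.21), Eaf2 (-0.05), Fkbp11, a chaperone of secretory cells (0.02), and Slamf7, a surface receptor of plasma cells (-0.55). Slamf7 had 121, 169 and 167 counts in WT and 79, 66 and 165 counts in MUT, with MUT replicates 1 and 2 lowest and MUT replicate 3 above WT replicate 1. All 13 had counts in MUT replicate 2, where Igha had none, and no gene of the list was at 0 in any sample.

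None of the 13 plasma cell genes was called by edgeR, by edgeR with the replicate block or by DESeq2. By edgeR 2 of them had an unadjusted p under 0.05, both lower in MUT, where 547 of all 19656 tested genes had one. Of their log2 fold changes 10 of 13 were negative, against 48.2% of all tested genes. Those 2 are named because of their values. Pou2af1, a coactivator at immunoglobulin promoters, had 16, 24 and 22 counts in WT and 5, 6 and 16 counts in MUT. Mzb1, a chaperone of antibody assembly, had 12, 13 and 20 counts in WT and 7, 8 and 9 counts in MUT. For both, every WT sample stood above every MUT sample in CPM, with group means under 1 CPM. For Pou2af1, WT replicate 1 and MUT replicate 3 were level in counts, at 16 each. Every WT sample lay above every MUT sample for 3.00% of the 19656 genes tested. For Tnfrsf17, Irf4 and Cd38 the groups overlapped in CPM. Tnfrsf17 had 17, 8 and 15 counts in WT and 10, 8 and 11 counts in MUT. Irf4 had 70, 68 and 60 counts in WT and 60, 58 and 45 in MUT. Cd38 had 35, 45 and 43 counts in WT and 35, 33 and 27 in MUT. In counts, no WT sample lay below a MUT sample for Irf4 or Cd38. Both were lowest in MUT replicate 3, which among MUT samples was highest for Pou2af1 and Mzb1.

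The 15 genes of the B cell list summed to 15.0, 15.2 and 18.4 CPM in WT and to 16.9, 16.2 and 18.3 CPM in MUT, so the groups overlapped. Of these 11 passed the filter on low counts and none was called by edgeR, with the block or by DESeq2. By edgeR 2 of the 11 had an unadjusted p under 0.05, both higher in MUT, beside 547 of all 19656 tested genes. Among them was Cr2, a complement receptor, with 8, 8 and 2 counts in WT and 13, 16 and 13 in MUT, which is named because of its values. The most abundant genes of the list were Bank1 (3.97 CPM in WT and 4.23 CPM in MUT), Ebf1 (3.99 and 4.17), Pax5 (1.71 and 1.48), Cd79a (1.41 and 1.54), Cd22 (1.55 and 1.07) and Cd79b (1.30 and 0.937). Ebf1 and Pax5 are transcription factors of B cells, and Cd79a and Cd79b carry the signal of the B cell receptor. No gene of the list was at 0 in all samples, but Blk was at 0 in WT replicate 1 and Vpreb3 in WT replicate 2.

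Genes that start antibody gene assembly were close to absent. Rag1 and Rag2, which cut the variable segments, had at most 1 count in any sample. Ung, which is also a general DNA repair gene, was at 151.0 ± 4.76 CPM in WT and 161.8 ± 14.7 CPM in MUT (SD, n = 3 each).

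Receptors that bind immunoglobulin were also detected. The list of 9 receptors summed to 165.4, 155.9 and 220.6 CPM in WT and to 137, 165 and 171.5 CPM in MUT, and 7 were tested with none called. Fcgr2b, the inhibitory IgG receptor, had 813, 734 and 1305 counts in WT and 693, 942 and 902 counts in MUT. Pigr, which carries IgA and IgM across epithelia, had at most 7 counts in any sample.

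Markers of other cells of the testis were also present in the sorted samples. The 11 macrophage genes all had counts in every sample and summed to 1164, 1061 and 1714 CPM in WT and to 929.2, 1085 and 1169 CPM in MUT. Their log2 fold changes were negative for 11 of 11 with a median of -0.29, where 48.2% of all tested genes were negative, and none was called. The highest sum was in WT replicate 3, the sample with the most immunoglobulin. MUT replicate 2, with the least immunoglobulin, had a higher sum than WT replicate 2. T cell genes summed to between 21.7 and 26.1 CPM, endothelial genes to between 44.5 and 59.3 CPM and red blood cell genes to between 1.82 and 3.29 CPM. Leydig cell genes were at 67.3 CPM in MUT replicate 3 and at between 12.9 and 21.1 CPM in the others. Of the 10 T cell genes Cd3g and Trbc1 were at 0 in all WT samples. The part of these cells in the level of the 9 genes was not tested.

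**Figure D4:**
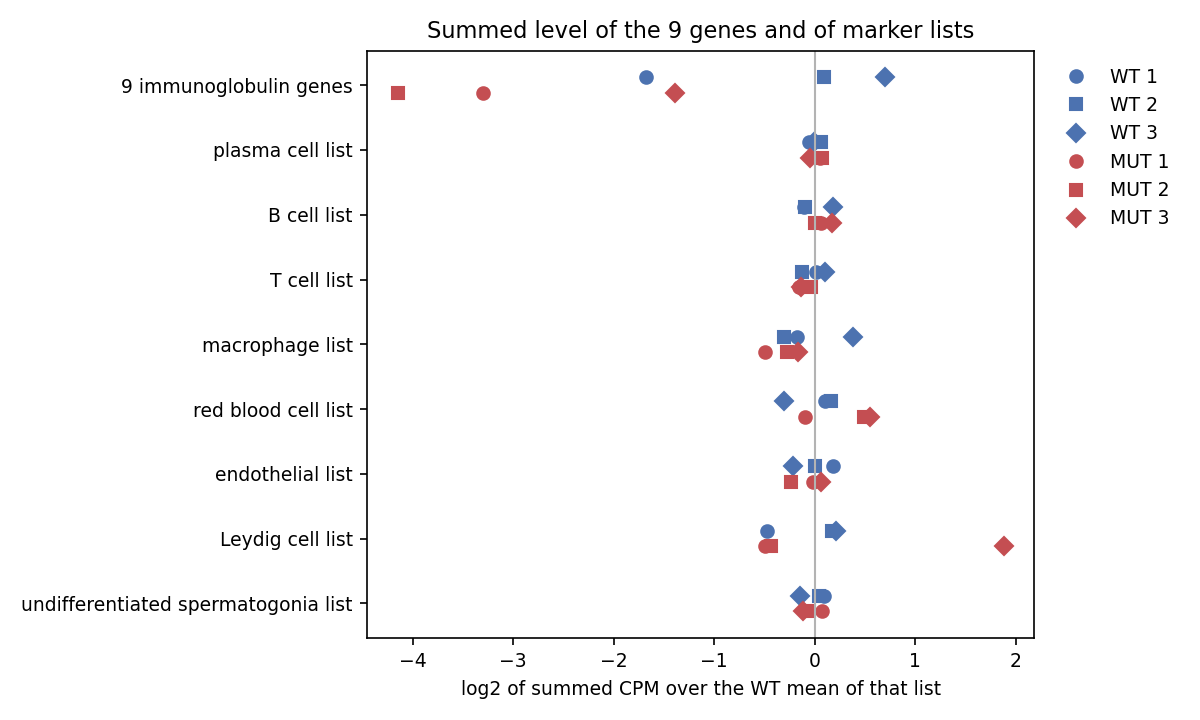
Summed CPM of the 9 immunoglobulin genes and of 8 marker lists in each sample, as log2 of the ratio to the WT mean of that list (horizontal axis). Each point is 1 sample, with WT above and MUT below the line of each list. The 9 genes spread over a 28.8-fold range, the plasma cell list over 1.10-fold and the macrophage list over 1.84-fold.

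Among 3815 genes outside the immunoglobulin loci that passed the filter on low counts and varied at least 2-fold, the closest in pattern to the summed level of the 9 genes were Naaa, RP24-303G10.2, RP23-468H22.3, Ccl8 and RP23-181M13.7. Their Pearson correlations with it over the 6 samples, on log2 CPM, were between 0.973 and 0.994, and 15 genes reached at least 0.95. With 6 points and 3815 genes this is a description of the libraries. Ccl8, a chemokine made by macrophages, had 797, 1103 and 1160 counts in WT and 445, 434 and 876 counts in MUT. Naaa, a lysosomal amidase, had 140, 182 and 219 counts in WT and 114, 102 and 154 counts in MUT. Both had smaller ranges than Igha or Igkc.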

How the data were processed

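RNA was measured in 6 sorted samples, 3 WT and 3 MUT, grouped by the genotype label, and the replicate numbers come from the sample titles. The deposited values were unnormalized fragment counts for every gene name, which the authors made from stranded mRNA libraries with featureCounts 1.6.2 on GENCODE M17 (GRCm38.p6). The submitters' processing notes also name FastQC and STAR. Strand was not used, and multi-mapping fragments and those shared by genes were dropped. A gene and an antisense partner therefore cannot be separated, similar variable or IgG genes are undercounted, and fragments joining a variable to a constant gene may be lost. No total or unassigned row was included.

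In R 4.3.3, edgeR 4.0.16 (TMM, filterByExpr, quasi-likelihood test, Benjamini-Hochberg adjustment, FDR 0.1) compared MUT with WT over 19656 genes. DESeq2 1.42.0, which the study used, was an alternative. The edgeR step was tested on simulated data with 200 changed genes. Shares carry exact Clopper-Pearson 95% intervals.

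Members and gene lists were chosen with earlier results of these data known. Named genes were the 9 members, other immunoglobulin constant genes with at least 3 counts in a sample, the leading Ighv and Igkv gene of each sample, and, of the plasma cell and B cell lists, the called genes or otherwise the 6 most abundant plus those at 0. The 5 genes most like the members in pattern were added. Any further gene was named after its values were seen.

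Same-numbered WT and MUT samples deviated together from their group means, with correlations of 0.304, 0.156 and 0.395 over 10583 genes above 10 CPM. The differently numbered WT replicate 2 and MUT replicate 1 correlated at 0.326, so the numbers are not the only candidate pairing. Since all same-numbered pairs were above 0.1, the numbers, taken from the labels, were treated as pairs in an alternative fit that had this number as a blocking term. The sources used here do not say that equal numbers mark littermates. Each sample was 1 mouse. Values of some listed genes are not reported here.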

Additional observations from a re-analysis of the deposited data

How the results depend on the processing

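The number of genes called between MUT and WT, 2 in the reported fit, was 5 with no filter on low counts, 9 with DESeq2, 13 with the replicate block, 1 at an FDR of 0.05, and 0 to 6 when each sample was left out in turn. It was 0 without MUT replicate 2, 1 without MUT replicate 1, 5 without WT replicate 3 and 6 without MUT replicate 3. With the block, Jchain was called and no other member or list gene was. The block changed no call among plasma cell and B cell genes, of which 0 were called under all 10 alternatives. The median log2 fold change of the 5 tested members was between -4.22 (without MUT replicate 3) and -2.10 (without WT replicate 3) when samples were left out. Over all 10 alternatives Igha lay between -5.82 and -2.42, Igkc between -5.31 and -2.47, Ighm between -1.08 and -0.65, and Ighd between -1.06 without MUT replicate 3 and 0.0072 without MUT replicate 2. The log2 ratio of the summed level lay between -3.66 (without MUT replicate 3) and -1.94 (without WT replicate 3), and the cause of these shifts was not tested.

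Shares of Igha per kilobase were 49.8%, 74.9% and 74.0% in the WT mice, against 16.1% and 54.7% in MUT replicates 1 and 3, lower than by counts because the exons of Igha are longer. Variable genes detected in MUT replicate 1 were 19 at a minimum of 1 count, and in MUT replicate 2 they were 17 at 1 count and 0 at 10 counts. Depth limits the lowest values: IgG genes, lambda genes and the variable genes of MUT replicates 1 and 2 rest on few fragments.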
